A study of Mus musculus with 2 samples.

Results

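The genes described here encode the phase II conjugating enzymes of mouse liver: the UDP-glucuronosyltransferases (UGT), the sulfotransferases (SULT) and the glutathione S-transferases (GST). They were chosen by gene symbol alone. A probe set of the array belonged if its platform symbol began with Ugt1, Ugt2, Ugt3, Sult or Mgst, or with Gst and a class letter (a, k, m, o, p, t or z) before a digit. This gave 64 of the 45037 probe sets that are not controls, 16 of them UGT, 15 SULT and 33 GST. Of the 64, 59 carried 1 gene symbol and stood for 46 of 18193 genes. The other 5 carried several symbols and are described by family only. The GRCm38.p6 gene table lists 67 protein-coding genes whose names meet the rule, and 21 of them had no probe set of their own symbol and were not analysed singly.

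Liver RNA came from wild-type male C57BL/6J mice, an inbred strain, housed singly from 8 weeks of age. The ad libitum (AL) group ate freely for 12 weeks. The calorie-restricted (CR) group received 20% less food for 1 week and 40% less for the next 11 weeks. Both groups are labelled as 5 months old. RNA of 3 mice was pooled in equal amounts for each diet, and each pool was hybridised to 1 Affymetrix array, so no spread between mice, no p-value and no standard error can be given. Every difference below is a log2 difference, CR minus AL, between these 2 pools, and the number of arrays limits its precision. In whole liver, fewer cells of a type and less RNA per cell cannot be told apart.

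Conjugation attaches a polar group to drugs, hormones, bile acids and bilirubin so that bile or urine can carry them away. UGT enzymes sit in the endoplasmic reticulum, and most transfer glucuronic acid from UDP-glucuronate. SULT enzymes of the cytosol transfer sulfate from PAPS, the activated form of sulfate. GST enzymes, cytosolic or membrane-bound, attach glutathione to reactive compounds or use it for reduction and isomerisation. Liver is the main site of all 3, and several members differ in level between male and female mice.

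The AL array had a median of 7.35 and the CR array of 7.42, as linear intensities after RMA. A gene was represented by its brightest probe set of 1 symbol. It counted as measured where at least 1 pool was at or above 7.38, the median of the values of both arrays. Of the 46 member genes, 37 were measured. The other 9 lay below that limit in both pools, 6 of them SULT genes and 3 GST genes. A 2-fold difference (1 on the log2 scale) was used as a rule of size. The central 95% of 12644 measured genes lay between -1.04 and 0.89, with a median of -0.02. Scaling the arrays on hybridisation control spikes in place of RMA's own scale moved that median to -1.04 with all of these controls and to -0.40 with the cre controls, so each direction given here is relative to the typical gene.

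All analysed genes of the UGT2B and UGT3A subfamilies lay below 0, 5 of them at least 2-fold lower in the CR pool. Ugt2b5 (-0.16) and Ugt2b34 on its brighter probe set (-0.13) were close to the typical gene, between the quartiles of measured genes, -0.29 and 0.23. The other Ugt2b34 probe set stood at -0.75, outside those quartiles. GST genes lay in both directions. SULT1 genes were higher on the authors' scale, though not when scaled on all hybridisation controls. Of all 46 member genes, 8 (17.4%) were at least 2-fold lower, against 1.94% of all genes. Another 2 (4.35%) were at least 2-fold higher, against 1.25% of all genes. Within the measured range, the same 8 and 2 stood among 37 members, against 2.79% and 1.8% of measured genes. Large differences were more frequent among bright genes. At a stricter limit, an intensity of 21.0, 7 of 32 members were at least 2-fold lower and 1 was higher, against 4.25% and 2.78% of genes. The 8 lower genes were Ugt2b38, Ugt2b1, Ugt2b37, Ugt2b35, Ugt3a2, Sult2a8, Gstm6 and Gstp1. The 2 higher genes were Gstt2 and Sult3a1. Sult3a1 lay below the limit in AL, so only at least 1.25-fold can be given for it, and by that bound Gstt2 alone was 2-fold higher.

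The families differed in their medians. All 10 UGT genes with a probe set of 1 symbol lay below 0, with a median of -0.93, and 5 of them were at least 2-fold lower. These genes leave out UGT1A, whose probe sets carried several symbols. Over all 16 UGT probe sets, UGT1A included, the median was -0.48, with 13 below 0 and 2 above. Of 13 SULT genes 8 lay above 0 and 5 below, with a median of 0.34, but 6 of the 13 lay below the measured limit in both pools. The 7 measured SULT genes had a median of 0.56, with 5 above 0 and 2 below. Among these 7, Sult1c2 and Sult3a1 passed the limit only through the CR pool. Of 23 GST genes 14 lay above 0 and 9 below, with a median of 0.09, and the 20 measured ones had a median of 0.07. Over all 46 members the median was -0.02. With 1 array per diet the difference between families was not tested. The 10 UGT genes also lay below 0 after centring on array medians and after removal of a loess trend. Scaling on controls subtracts 1 constant from every gene, 0.37 for the cre controls and 1.02 for all hybridisation controls. Genes below 0 can then only go lower and the order of the families is kept, so these scalings are no check on UGT. The median of the 13 SULT genes was -0.03 on the cre controls and -0.67 on all hybridisation controls. The median of the 23 GST genes turned to -0.28 and -0.92 on the same scales.

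**Figure D1:**
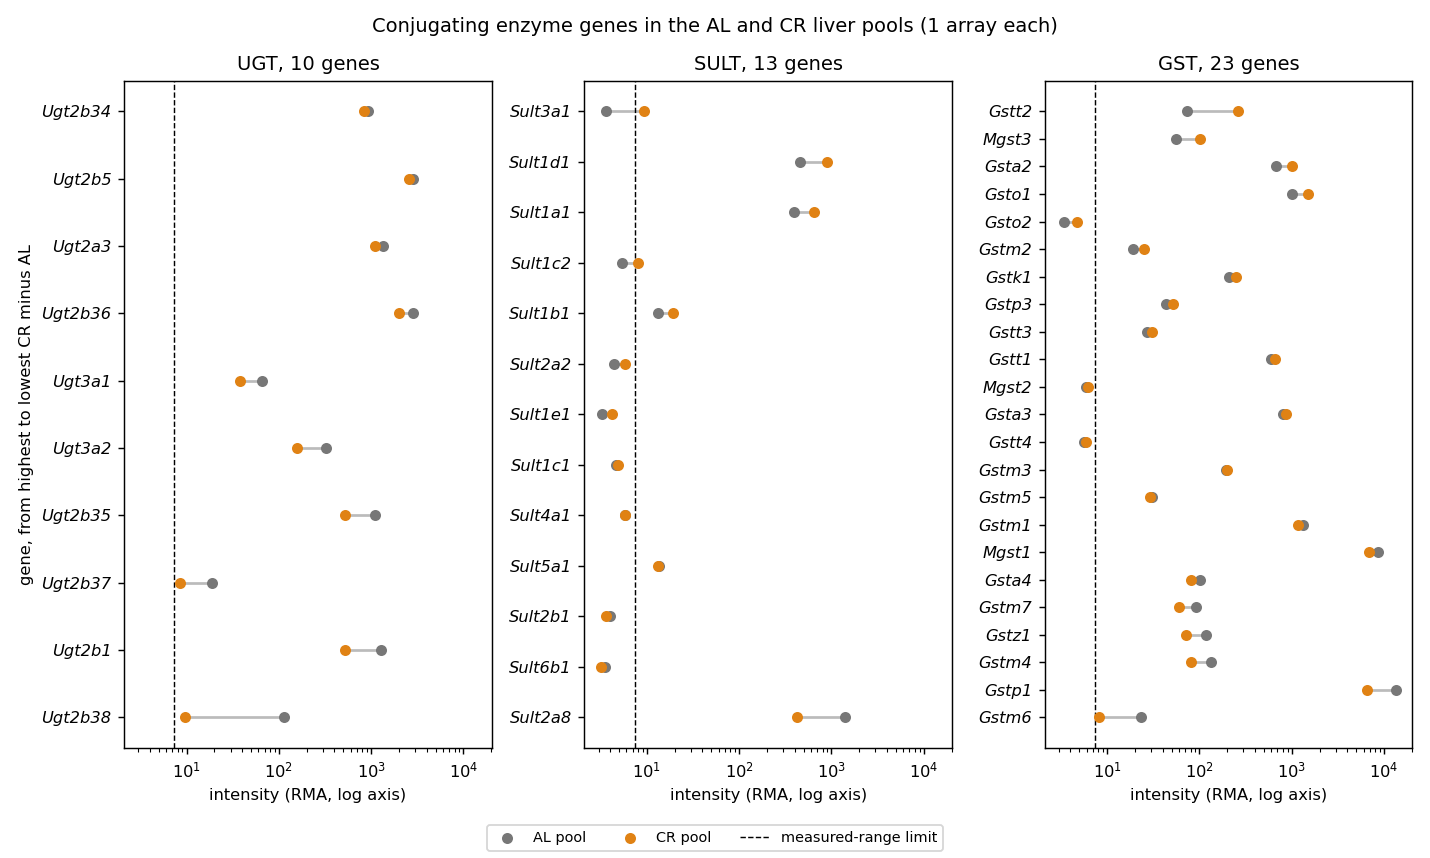
Intensity (log axis) of each of the 46 member genes on its brightest probe set, in the AL pool (grey) and the CR pool (orange), 1 array each and hence no error bars, ordered by difference within each family. The dashed line marks the limit of the measured range, 7.38. All 10 UGT genes shown have the CR point to the left of the AL point; SULT and GST genes run both ways on the authors' scale, and scaling on all hybridisation controls would turn most SULT and GST genes to the left.

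Ugt2b38 had the largest difference of any member. This gene encodes a UGT2B enzyme known to be more abundant in male than in female mouse liver. Its intensity was 113 in AL and 9.58 in CR, a difference of -3.56 or 11.8-fold, and it ranked 9 from the lowest among 12644 measured genes. The CR value lay just above the measured limit, so the size of the fold depends on a value near background. Ugt2b1, also known as male-predominant, had 1287 in AL and 524 in CR, a difference of -1.30. Ugt2b35 had 1098 and 517, a difference of -1.09. Ugt2b37 had 19.0 in AL and 8.58 in CR, a difference of -1.14 between dim values.

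The remaining UGT2 genes lay within 2-fold. UGT2B enzymes glucuronidate steroids, bile acids and many drugs. Ugt2b36 had 2860.5 in AL and 2022 in CR, a difference of -0.50. Ugt2b5 had 2865 and 2557, a difference of -0.16. The brighter of the Ugt2b34 probe sets had 922 and 845, a difference of -0.13, and the dimmer had 322 and 191, a difference of -0.75. Ugt2a3, whose enzyme acts on bile acids, had 1329.7 and 1093, a difference of -0.28. Differences within this subfamily thus ran from -3.56 to -0.13, and the 4 UGT2B genes past 2-fold all had a single probe set.

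UGT3A genes were lower as well. These enzymes use other UDP-sugars than UDP-glucuronate. Ugt3a2 had 325 in AL and 156 in CR, a difference of -1.06. Ugt3a1 had 65.9 and 37.9 on its brighter probe set, a difference of -0.80, and -0.45 on the dimmer one, whose CR value was below the limit.

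The UGT1A enzymes, which include the enzyme that conjugates bilirubin, were near level between the pools. UGT1A transcripts have different first exons and common later exons, and the 3 probe sets in the table each carried 8 Ugt1a symbols. The first of these probe sets had 2764 in AL and 3048 in CR, a difference of 0.14. The others had 2700.3 and 3012, a difference of 0.16, and 899 and 725, a difference of -0.31. All 3 probe sets thus lay within 2-fold, and which Ugt1a transcripts gave the signal cannot be read from them. One more probe set with several symbols, Ugt2a1 with Ugt2a2, had an intensity of 3.48 in both pools, below the measured limit.

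The UGT2 genes lie next to each other on chromosome 5 and arose by duplication, so the bases before their starts could be compared with their differences. RefSeq windows of 250 bases upstream of the annotated start (GRCm38.p6) were aligned in all 28 pairs of the 8 UGT2 genes. Ugt2b38, Ugt2b37 and Ugt2b5 stood apart, with 72.6% to 84.8% identical aligned positions, gaps at the ends included, against 43.5% to 60.8% in the other 25 pairs. These 3 windows are shown because their genes had unequal differences, -3.56, -1.14 and -0.16, after similar upstream sequence. In CR, Ugt2b38 (9.58) and Ugt2b37 (8.58) both lay near the measured limit of 7.38, and Ugt2b37 had only 19.0 in AL. Whether these 2 genes differed in response therefore cannot be read from their differences. The 3 windows lie on the minus strand at chr5:87424204-87424453 (Ugt2b38), chr5:87254789-87255038 (Ugt2b37) and chr5:87140341-87140590 (Ugt2b5), and are printed 5′ to 3′ up to the base before the start. Capitals in Ugt2b38 mark the 8 bases that match neither of the others, and capitals in Ugt2b37 and Ugt2b5 mark bases that differ from Ugt2b38 or are unpaired with it.
Ugt2b38: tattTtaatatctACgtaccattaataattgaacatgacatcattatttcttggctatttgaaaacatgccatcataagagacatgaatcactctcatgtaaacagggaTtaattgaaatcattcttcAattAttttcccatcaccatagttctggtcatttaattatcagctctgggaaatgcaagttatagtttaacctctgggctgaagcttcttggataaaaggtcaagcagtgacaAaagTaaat
Ugt2b37: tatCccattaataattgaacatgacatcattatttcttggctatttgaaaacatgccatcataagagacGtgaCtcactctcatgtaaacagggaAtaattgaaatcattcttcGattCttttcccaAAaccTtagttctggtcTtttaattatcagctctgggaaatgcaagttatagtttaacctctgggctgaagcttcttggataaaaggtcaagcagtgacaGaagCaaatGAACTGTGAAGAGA
Ugt2b5: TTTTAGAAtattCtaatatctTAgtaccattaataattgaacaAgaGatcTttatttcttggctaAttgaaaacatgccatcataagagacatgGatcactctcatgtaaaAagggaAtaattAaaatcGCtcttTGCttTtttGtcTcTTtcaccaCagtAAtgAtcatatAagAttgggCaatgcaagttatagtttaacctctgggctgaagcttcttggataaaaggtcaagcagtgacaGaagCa

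Ugt2b38 and Ugt2b37 had 224 identical bases among 236 paired ones, or 94.9%, and Ugt2b38 and Ugt2b5 had 212 among 240, or 88.3%. The longest run common to all 3 was 62 bases, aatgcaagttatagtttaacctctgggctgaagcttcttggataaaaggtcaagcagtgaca. Counted back from the base before the start as -1, its last base lay at -10 in Ugt2b38, -24 in Ugt2b37 and -7 in Ugt2b5. A 250-base window does not cover distant control regions, and the probe sequences of the array were not used here, so how much each probe set picks up its neighbours' transcripts was not tested.

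**Figure D2:**
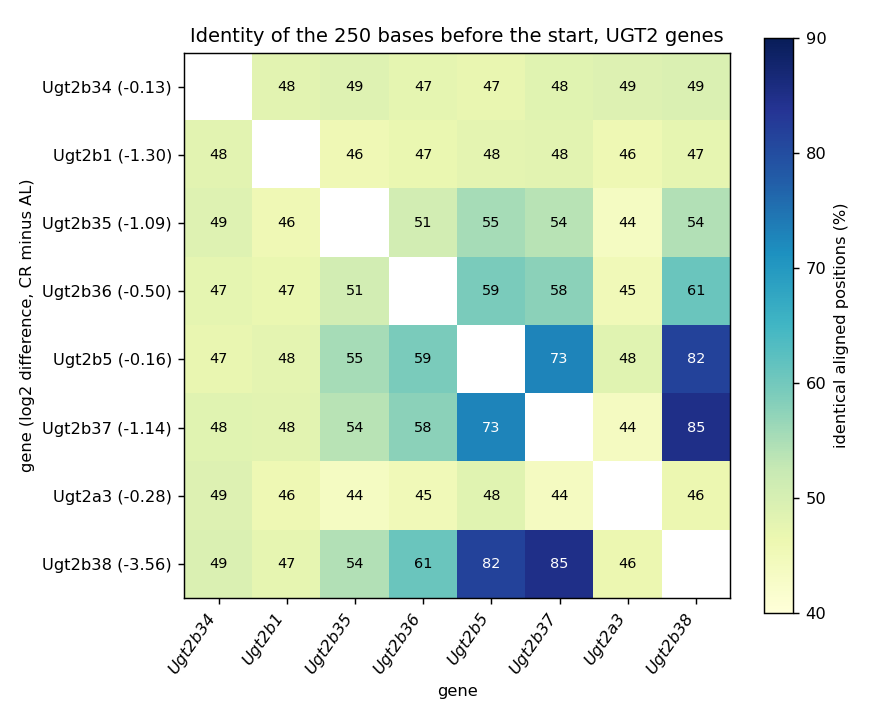
Percentage of identical aligned positions between the 250 bases before the annotated starts of the 8 UGT2 genes with a probe set, in chromosome order, with each gene's log2 difference (CR minus AL) beside its name. The darkest squares join Ugt2b38, Ugt2b37 and Ugt2b5 (72.6% to 84.8%), whose differences run from -3.56 to -0.16. The CR values of Ugt2b38 (9.58) and Ugt2b37 (8.58) lie near the measured limit of 7.38, and Ugt2b37 is dim in AL as well (19.0).

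Gene order gave a second view of the same block. In GRCm38.p6 the order is Ugt2b34, Ugt2b1, Ugt2b35, Ugt2b36, Ugt2b5, Ugt2b37, Ugt2a3, Ugt2b38, Ugt2a1, Ugt2a2, Sult1b1, Sult1d1 and Sult1e1, with no other protein-coding gene between them. The 8 UGT2 genes with a value lay below 0, from -3.56 to -0.13. The SULT1 genes that follow lay above 0 on the authors' scale, Sult1b1 at 0.54, Sult1d1 at 0.98 and Sult1e1, below the limit in both pools, at 0.34, and turned below 0 when scaled on all hybridisation controls. Size did not follow position among the UGT2 genes, since Ugt2a3 at -0.28 lies between Ugt2b37 at -1.14 and Ugt2b38 at -3.56.

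**Figure D3:**
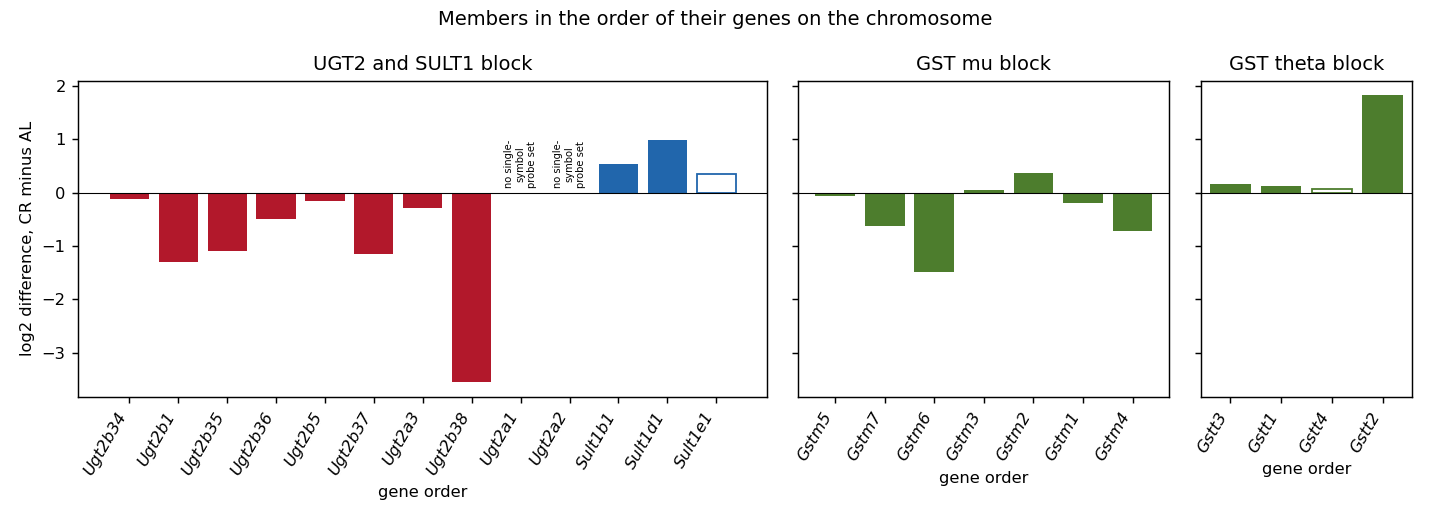
Log2 difference (CR minus AL) of the members in the order of their genes on the chromosome, for the UGT2 and SULT1 block, the GST mu block and the GST theta block; red bars are UGT, blue SULT and green GST genes, and open bars lie below the measured limit in both pools. In the first block the sign changes between Ugt2b38 (-3.56) and Sult1b1 (0.54), and Gstt2 (1.82) stands above its neighbours; on the scale of all hybridisation controls the SULT1 bars would lie below 0.

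Among sulfotransferases, the SULT1 genes were higher in the CR pool on the authors' scale and lower when scaled on all hybridisation controls. SULT1 enzymes sulfate phenols, catecholamines, thyroid hormones and estrogens. Sult1d1 had 455 in AL and 898 in CR on its brighter probe set, a difference of 0.98, and 115 and 306 on the other, a difference of 1.41. Sult1a1, the main phenol sulfotransferase, had 394 and 639, a difference of 0.70. Sult1b1, which acts on thyroid hormones, had 13.1 and 19.1, a difference of 0.54. Sult1c2 lay below the limit in AL, at 5.39, and reached 7.93 in CR, at least 1.07-fold higher. Sult1c1 and the estrogen sulfotransferase gene Sult1e1 lay below the limit in both pools. All 6 SULT1 genes lay above 0, with a median of 0.55, and none of the 6 was 2-fold different on its brightest probe set. The median of the same 6 was 0.18 on the cre controls, with 4 above 0, and -0.47 on all hybridisation controls, with none above 0, beside -0.40 and -1.04 for the typical gene.

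Sult2a8 went the other way. This gene encodes a liver sulfotransferase that acts on bile acids. Its intensity was 1401 in AL and 426 in CR, a difference of -1.72 or 3.29-fold, on a single probe set. The other SULT2 genes with a probe set, the hydroxysteroid sulfotransferase gene Sult2a2 and the cholesterol sulfotransferase gene Sult2b1, lay below the limit in both pools. Sult3a1, a sulfotransferase gene known for its female-predominant expression, had 3.60 in AL and 9.24 in CR. Its difference was 1.36, but the AL value lay below the limit, so it is given as at least 1.25-fold higher. It counted as measured only through the pool in which it was higher. Sult5a1 was level at 13.7 and 13.3, and Sult4a1 and Sult6b1, genes of brain and testis, lay below the limit in both pools.

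Among glutathione S-transferase genes, 2 of 23 (8.70%) were at least 2-fold lower and 1 (4.35%) was higher, against 1.94% and 1.25% of all genes. Gstp1, the pi class enzyme and another gene known as male-predominant in mouse liver, had 13396 in AL and 6506 in CR, a difference of -1.04 that lay just past 2-fold. The table names no probe set for its near-identical neighbour Gstp2, so the signal may include both. Gstp3, the next gene of that block, had 43.7 and 51.4, a difference of 0.23. Gstt2, a theta class enzyme, had 74.2 in AL and 262 in CR, a difference of 1.82 or 3.53-fold, and ranked 43 from the highest among measured genes. Its neighbours Gstt3 and Gstt1 stood at 0.15 and 0.13, and Gstt4 lay below the limit in both pools. The theta class thus had 1 member far above the rest.

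The mu class, which conjugates epoxides and reactive aldehydes, ran from Gstm6 at -1.50 to Gstm2 at 0.38 over 7 measured genes, with a median of -0.19. Gstm6 had 23.0 in AL and 8.16 in CR, with the CR value close to the limit. Gstm1 had 1331 and 1165 on its brightest probe set, and its 4 probe sets agreed closely, from -0.22 to -0.17. Gstm4 stood at -0.73, and Gstm7 at -0.63 on the brighter and 0.04 on the dimmer probe set. Gstm3 and Gstm5 stood at 0.05 and -0.07. Position in the mu block showed no single direction, as Gstm6 at -1.50 lies beside Gstm3 at 0.05.

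The alpha class includes enzymes that remove lipid peroxidation products. Gsta2 had 682 in AL and 1006 in CR, a difference of 0.56. Gsta3 had probe sets that disagreed. The brighter had 813 and 867, a difference of 0.09, and the other 195 and 88.8, a difference of -1.14. Gsta4, whose enzyme conjugates 4-hydroxynonenal, stood at -0.32. The probe set shared by Gsta1, Gsta2 and Gm3776 had 60.8 and 49.1, a difference of -0.31. The alpha probe sets therefore lay on both sides of 0, and none of the 3 genes was 2-fold different on its brightest probe set.

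The remaining classes lay within 2-fold. Gsto1, an omega class enzyme that reduces dehydroascorbate, had 1016 in AL and 1487 in CR, a difference of 0.55, and 0.05 on its other probe set. Gstk1, the kappa class enzyme of mitochondria and peroxisomes, stood at 0.26. Gstz1, an enzyme of tyrosine breakdown, had 117 and 71.9, a difference of -0.70. Mgst1, the main membrane-bound GST of liver, had 8542 and 6938, a difference of -0.30. Mgst3 had 56.0 and 102, a difference of 0.87, on its one measured probe set. Gsto2 and Mgst2 lay below the limit in both pools.

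**Figure D4:**
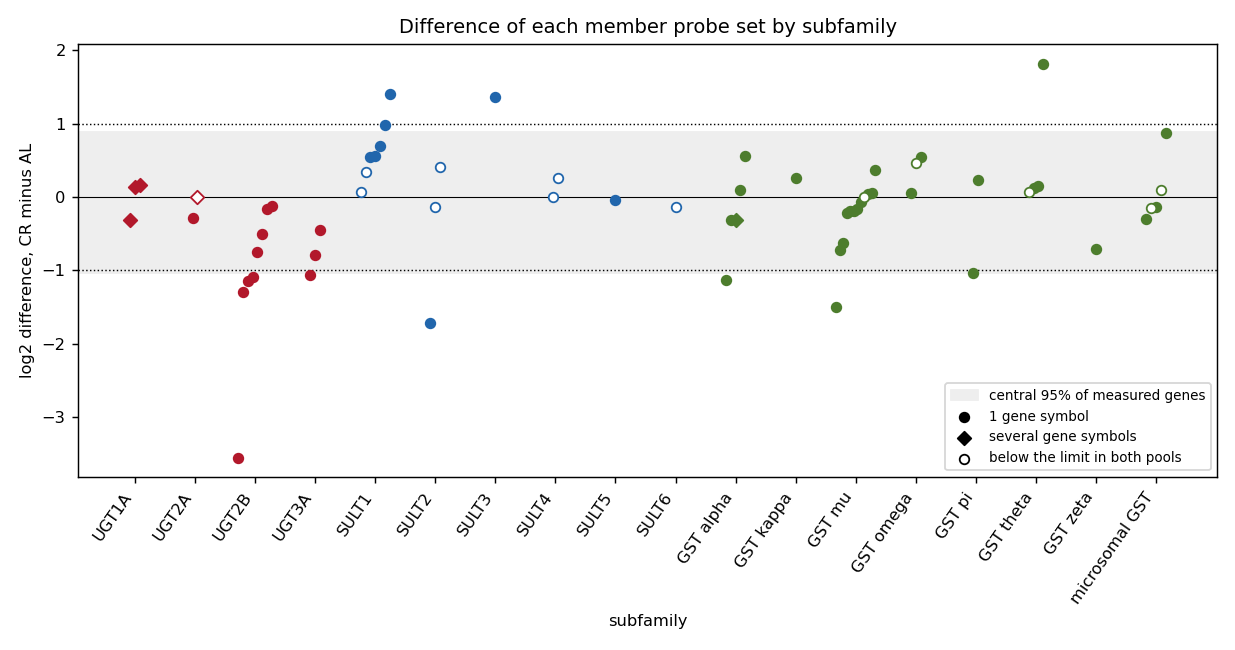
Log2 difference (CR minus AL) of each of the 64 member probe sets by subfamily; circles carry 1 gene symbol, diamonds several, open symbols lie below the measured limit in both pools, the grey band holds the central 95% of measured genes and dotted lines mark 2-fold. UGT2B and UGT3A probe sets lie below 0, from -3.56 to -0.13, while the 3 UGT1A probe sets lie between -0.31 and 0.16; SULT1 probe sets lie above 0 on the authors' scale and reach 1.41, but the brightest probe set of each SULT1 gene falls below 0 when scaled on all hybridisation controls.

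Counted by probe set, 9 of 64 were at least 2-fold lower and 3 at least 2-fold higher, against 1.46% and 1.11% of all probe sets. Those 9 and 3 lay among 51 member probe sets in the measured range, against 2.74% and 2.09% of all probe sets in that range. Each of them carried 1 symbol. The 5 probe sets with several symbols lay between -0.31 and 0.16. Of the 8 member genes with several probe sets in the measured range, 1 (12.5%), Gsta3, had probe sets at least 1 apart, and among all 4924 such genes the share was 14.4%. The 8 genes past 2-fold in the lower direction and the 2 in the higher direction each rested on 1 probe set, so none of them had a second reading on the array.

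Members known for a sex bias were compared as lists of 4 male-predominant and 4 female-predominant genes, chosen with earlier results of these data known. Gstp2 and Sult2a1 had no probe set of their own symbol. Ugt2b1, Ugt2b38 and Gstp1, which male mouse liver expresses more, were all at least 2-fold lower in the CR pool. Among all genes 1.94% were, and among the 46 members 17.4%. As the list was chosen with such results known, this count is a description and no test of a sex-biased pattern. Of genes that female liver expresses more, Sult1a1 stood at 0.70, and Sult3a1, below the limit in AL, was at least 1.25-fold higher on the authors' scale. Sult2a2, also female-predominant, lay below the limit in both pools at 4.37 and 5.80. On the scale of all hybridisation controls Sult1a1 stood at -0.32.

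On a list of 5 genes around the sugar donor of glucuronidation, most lay below 0. The list's median was -0.65, against -0.02 for measured genes. Below 0 were 4 of its genes, against 6589 of 12644 measured genes. At least 2-fold lower was 1, against 2.79% of measured genes, and none was 2-fold higher. Ugdh, the enzyme that makes UDP-glucuronate, had 916 in AL and 471 in CR, a difference of -0.96. Slc35d1, a transporter of UDP-glucuronate into the endoplasmic reticulum, stood at -0.65, although its other probe set stood at 0.14. The 1 gene past 2-fold was Slc35b1, a nucleotide carrier of the endoplasmic reticulum, with 113 and 22.6, a difference of -2.32. Its place in the supply of UDP-glucuronate was not tested, and the rest of the list was within 2-fold on the brightest probe sets.

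On a list of genes around sulfate activation, most lay below 0, and Papss2 lay above. PAPS is made by the synthases Papss1 and Papss2. Papss2 had 88.1 in AL and 194 in CR, a difference of 1.14, with 0.32 on its other probe set. Papss1 had 35.3 and 17.3, a difference of -1.03. Bpnt1, which degrades the spent nucleotide left by sulfation, had 405 and 237, a difference of -0.77. The list had a median of -0.44 over 7 measured genes, with 6 below 0, against 6589 of 12644 measured genes.

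Glutathione genes showed smaller differences, with none of 12 measured past 2-fold and a median of -0.19. Gsr, glutathione reductase, had 148 in AL and 78.2 in CR, a difference of -0.92, with -0.28 on its other probe set. Oplah, which recycles 5-oxoproline to glutamate, stood at 0.75, and Chac1, a glutathione-degrading enzyme, at -0.58. Slc7a11, the cystine importer, lay below the limit in both pools.

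Other steps around conjugation showed no shared direction. Of 9 measured conjugating enzymes outside the 3 families, none was 2-fold different, against 2.79% of measured genes lower and 1.8% higher. The largest difference was 0.92, for the histamine methyltransferase Hnmt. The arsenic methyltransferase As3mt stood at 0.78 and the nicotinamide methyltransferase Nnmt at 0.57. Among 6 hydrolases, the epoxide hydrolase Ephx1 had 687 in AL and 356 in CR, a difference of -0.95. The beta-glucuronidase Gusb, which removes glucuronic acid, stood at -0.79, and the dipeptidase Dpep1 at 0.70 (0.02 on its other probe set). Of 5 measured efflux pumps for conjugates, 4 lay above 0 on the authors' scale, against 5994 of 12644 measured genes. Abcc2, the canalicular conjugate exporter, stood at 0.50 and Abcc4 at 0.45. The efflux pump Abcg2 stood at -0.82.

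Regulators and their other targets were placed beside the members. Of 19 measured transcription factors, 10 lay above 0 and 9 below, with a median of 0.16. Ppara, the fatty acid receptor, was the only 1 past 2-fold, at 1.04, with 190 in AL and 390 in CR. Of measured genes 1.8% were at least 2-fold higher. Nr1i3, or CAR, a drug-sensing receptor that regulates UGT and SULT genes, had 38.5 and 66.8, a difference of 0.79. The oxysterol receptor gene Nr1h3 stood at -0.78. Of 14 measured targets of the antioxidant factor NRF2 outside the members, 9 lay below 0 and 5 above, with a median of -0.30. That is near the split of all measured genes, 6589 below 0 and 5994 above among 12644. Only 1 target, the aldehyde oxidase Aox1, was at least 2-fold lower, at -1.40, against 2.79% of measured genes. Txnrd1, a thioredoxin reductase, stood at -0.90. The NRF2 list shares Ephx1 and other genes with the lists above. Of 11 measured targets of CAR, PXR and AHR outside the members none was 2-fold different, against 2.79% of measured genes lower and 1.8% higher. The median of these targets was -0.13. The carboxylesterase Ces2a stood at 0.96, the heme synthesis enzyme Alas1 at -0.75 (other probe set -0.12) and Aldh1a1 at -0.70.

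**Figure D5:**
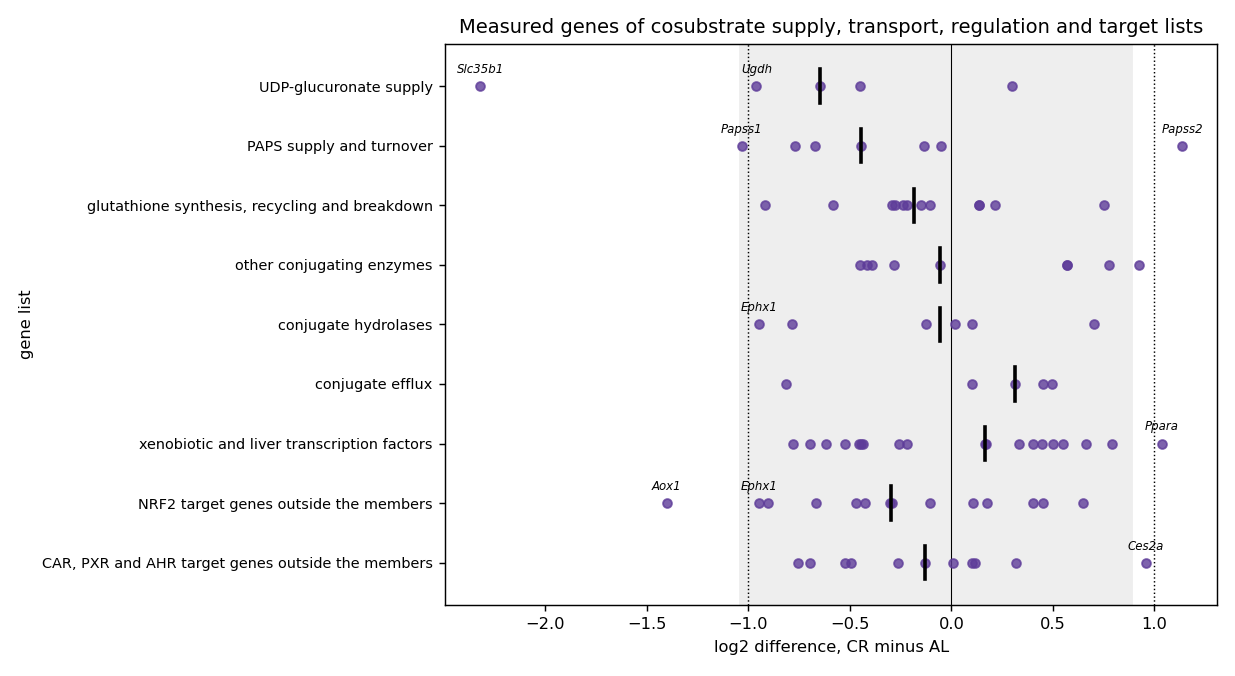
Log2 difference (CR minus AL) of the measured genes in 9 lists around the conjugating enzymes; each point is a gene, the black bar is the list's median, the grey band holds the central 95% of measured genes and dotted lines mark 2-fold. The UDP-glucuronate supply list has the lowest median, -0.65 over 5 genes, Slc35b1 at -2.32 and Aox1 at -1.40 lie below the band, and Papss2 at 1.14, Ppara at 1.04, Ces2a at 0.96 and Hnmt at 0.92 lie above it on the authors' scale; medians above 0 hold on the authors' scale only.

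The upstream windows were also searched for short motifs, on both strands. Windows were found for 41 of the 46 member genes, 53 in all since some genes have several starts, and shares are set against 32851 windows of the same length. The STAT motif TTCNNNGAA was in 2 member windows (3.77%), of Gstm6 and Sult3a1, and in 7.02% of all. Gstm6 stood at -1.50, and Sult3a1 was at least 1.25-fold higher. The antioxidant response motif TGACNNNGC was in 4 (7.55%), of Gsta3, Gstm5, Gstm7 and Mgst1, against 10.2% of all. The HNF1 half-site GTTAAT was in 5 (9.43%), of Ugt2a3, Ugt3a1, Sult1a1, Sult1d1 and Gsta3, against 6.43%. The AHR core GCGTG was in 10 (18.9%), none of them UGT windows, against 28.2%, and the HNF4 motif CAAAGTCCA was in none, against 0.384%. A match is a description of letters in these windows.

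The labelled tissue was checked against markers. All 9 hepatocyte markers with a probe set were measured and within 2-fold on their brightest probe set, with summed intensities of 62396 in AL and 60886 in CR. Neutrophil markers summed to 123 and 47.6 over 5 genes, with S100a8 and S100a9 at -2.29 and -1.75, and Mpo and Camp below the limit in both pools. Kupffer cell markers summed to 2178 and 1872.5 over 9 genes, and all 8 measured ones lay below 0, against 6589 of 12644 measured genes. Erythroid markers summed to 51.4 and 18.1 over 3 genes, with Alas2 at -2.43 and Hba-a1 and Slc4a1 below the limit in both. Exocrine pancreas markers summed to 133 and 74.1 over 4 genes, with Cela1 at -1.41 and Cpa1 below the limit in both.

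For the remaining marker lists the sums were as follows. Cholangiocyte markers summed to 74.9 and 76.7 over 7 genes, lymphocyte markers to 96.3 and 86.2 over 7, sinusoidal endothelial markers to 695 and 635 over 8, and stellate cell markers to 1544 and 1444 over 8. Small intestine markers, another tissue of conjugation, summed to 502 and 385 over 5 genes, nearly all from Fabp2, with Vil1, Cdx1 and Cdh17 below the limit. Kidney markers summed to 50.4 and 46.5 over 5 genes and adipocyte markers to 35.5 and 36.1 over 4. The part of these cell types in the members' differences was not tested. The control probe sets for the 3′ and 5′ ends of beta-actin stood at -0.73 and -0.83, and those of Gapdh at -0.67 and -0.85. For beta-actin the 3′ end had 2357 in AL and 1425 in CR, and the 5′ end 28.2 and 15.9. For Gapdh the 3′ end had 1265 and 794, and the 5′ end 26.9 and 14.9. In both pools the 5′ signal of these transcripts was thus far below the 3′ signal. How this bears on members with 1 probe set, or with probe sets that disagree, was not tested either.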

How the data were processed

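Per the labels' protocols, each diet's array was hybridised with RNA pooled from the livers of 3 mice. The authors deposited 1 intensity per probe set and pool, made with RMA per the submitters' processing notes, which corrects background, normalises between arrays and summarises probes. The values reach far above a log2 range and are linear. The RMA version and software are not given in the sources used here. RMA hides a shift shared by most genes, and the table holds no detection calls.

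Differences are log2 CR minus log2 AL. Symbols came from the platform annotation of 2016, and all 46 member genes matched GRCm38.p6 by Entrez ID with the same symbol. Named are members past 2-fold, the 4 brightest measured in each family and those whose probe sets lie at least 1 apart, other members by value, and in each other list the genes past 2-fold and the 3 of largest difference. Members and lists were chosen with earlier results of these data known. With 1 array per group no test was possible. Upstream windows were aligned globally (match 1, mismatch -1, gap opening -3, extension -0.5). The steps were tested on simulated data. Alternatives are given at the end. Alignment used biopython 1.88, the loess trend statsmodels 0.14.6, tables pandas 2.3.3 and numpy 2.4.6, and plots matplotlib 3.10.9, under Python 3.11.15.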

Additional observations from a re-analysis of the deposited data

How the results depend on the processing

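With 1 array per diet no replicate could be left out. No paired analysis was possible because each group had 1 sample. A value was called moved if it shifted by more than 0.288, the median SD among probe sets of a gene, and a count if it changed by more than 1.5 times. Scaling mattered most. On all hybridisation controls, which moved the median gene to -1.04, 21 member genes (30 probe sets) were at least 2-fold lower and 0 genes (0 probe sets) higher, and the family medians over measured genes were -1.94 for UGT, -0.46 for SULT and -0.94 for GST. Of the measured SULT genes, Sult1c2 and Sult3a1 passed the limit only through the CR pool. On the cre controls 14 probe sets were lower, 1 gene was higher, and the medians were -1.30, 0.18 and -0.30. The stricter limit, and the limit on the mean of both arrays, each left 1 gene higher, Gstt2. At 1.5-fold (0.585 on the log2 scale) 5 genes and 6 probe sets were higher and 14 probe sets lower. No other count or family median moved, under averaging of probe sets, leaving out _x_at, _s_at and _a_at probe sets, no limit, centring on array medians or removal of a loess trend (span 0.4). Of 182 values of 21 named members under the alternatives, 136 kept their value, 46 moved and 0 turned a 2-fold difference to the other sign. That 0 says little about direction, since scaling on all hybridisation controls shifted each gene by only 1.02. On that scale signs within 2-fold did turn, to -0.32 for Sult1a1, -0.48 for Sult1b1, -0.03 for Sult1d1, -0.47 for Gsto1 and -0.92 for Gsta3. Outside the scalings on controls, the moved values were -0.52 for Gsta3 and -0.44 for Ugt2b34 on averaging, and 0.05 for Gsto1 and -0.75 for Ugt2b34 without shared probe sets.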
